A study of Mus musculus with 18 samples.

Results

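Sterol and fatty acid synthesis genes are the 32 genes of the count table whose names stand on a list of the mevalonate and sterol pathway, its control by SREBP and LXR factors, and fatty acid synthesis. They are 32 of the 54532 genes in the table, and all 32 passed the filter on low counts that left 18291 genes for testing. The list holds 18 mevalonate and sterol enzymes, 6 genes of SREBP control and sterol transport, 5 genes of fatty acid synthesis and 3 genes of the LXR pathway and sterol export. Poly(A) RNA from the nasal mucosa of mice was sequenced, in 6 libraries each for the groups C10, CRS and CON. The CRS group is a model of chronic rhinosinusitis, in which 20 µg of papain, a plant protease, was put into the nose in 20 µL of buffer, at first on days 0 to 2 and again on days 7 to 11. Mice of the C10 group are assumed to have had the same papain together with the compound C10, which the series title calls an inhibitor of APE1. The protocol gives C10 to CRS mice, at 10 mg/mL and 10 µL on each side of the nose, once a day for 10 days counted from the opening papain dose. What CON mice received, whether CRS mice received the vehicle of C10, and the strain, age and hour of collection are not stated. Nor is it stated that every library came from a different mouse, so p-values measure only the spread between these libraries, which may be technical in part.

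Cells build cholesterol from acetyl-CoA through mevalonate, isoprenoid units, squalene and lanosterol. When sterol in the endoplasmic reticulum runs low, Scap carries the precursors of the SREBP factors to the Golgi, where they are cut and released to switch on the sterol and fatty acid enzymes; when sterol is plentiful, the Insig proteins hold Scap back. LXR factors respond to oxidised sterols and turn on the export pumps Abca1 and Abcg1 as well as Srebf1, and in airway and nasal lining lipid synthesis serves membranes, secretion and the lipid films of the surface.

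Promoters of 5 genes are shown because these 5 are members that stood higher in C10 than in CRS at an unadjusted p under 0.05 and have a window in the RefSeq table used. The windows run from 250 bases before to 50 bases from the annotated start in build GRCm38.p6. Capitals mark matches, on either strand, to 3 motifs: the sterol regulatory element TCACNCCAC, the CCAAT box (read as ATTGG on the other strand) and the E-box CACGTG. The Hmgcs1 window is chr13:119690101-119690400 on the plus strand, that of Insig1 is chr5:28071162-28071461 on the plus strand, that of Lss is chr10:76531355-76531654 on the plus strand, that of Msmo1 is chr8:64733529-64733828 on the minus strand, and that of Elovl6 is chr3:129532136-129532435 on the plus strand.
Hmgcs1: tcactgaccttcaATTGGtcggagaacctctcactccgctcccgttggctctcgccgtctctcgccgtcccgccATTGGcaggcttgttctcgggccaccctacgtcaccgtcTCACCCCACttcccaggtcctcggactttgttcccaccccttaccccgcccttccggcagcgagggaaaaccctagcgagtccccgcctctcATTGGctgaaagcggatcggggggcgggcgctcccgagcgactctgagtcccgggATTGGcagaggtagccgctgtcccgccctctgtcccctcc
Insig1: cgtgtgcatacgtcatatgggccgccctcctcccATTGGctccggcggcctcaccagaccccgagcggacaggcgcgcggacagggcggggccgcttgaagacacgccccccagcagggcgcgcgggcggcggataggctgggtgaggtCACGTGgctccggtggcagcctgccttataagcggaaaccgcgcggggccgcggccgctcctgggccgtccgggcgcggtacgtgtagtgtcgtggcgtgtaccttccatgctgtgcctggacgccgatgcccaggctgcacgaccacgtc
Lss: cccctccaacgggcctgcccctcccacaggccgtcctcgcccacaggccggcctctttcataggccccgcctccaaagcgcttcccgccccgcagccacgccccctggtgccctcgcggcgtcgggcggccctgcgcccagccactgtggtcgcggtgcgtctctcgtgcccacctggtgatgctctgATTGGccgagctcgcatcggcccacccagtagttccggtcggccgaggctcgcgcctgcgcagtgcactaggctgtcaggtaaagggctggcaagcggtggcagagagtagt
Msmo1: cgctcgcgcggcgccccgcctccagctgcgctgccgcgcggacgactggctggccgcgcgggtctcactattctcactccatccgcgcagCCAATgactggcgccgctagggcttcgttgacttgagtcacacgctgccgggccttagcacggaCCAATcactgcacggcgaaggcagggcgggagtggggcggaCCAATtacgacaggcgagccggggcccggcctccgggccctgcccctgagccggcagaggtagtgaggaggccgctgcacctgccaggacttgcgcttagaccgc
Elovl6: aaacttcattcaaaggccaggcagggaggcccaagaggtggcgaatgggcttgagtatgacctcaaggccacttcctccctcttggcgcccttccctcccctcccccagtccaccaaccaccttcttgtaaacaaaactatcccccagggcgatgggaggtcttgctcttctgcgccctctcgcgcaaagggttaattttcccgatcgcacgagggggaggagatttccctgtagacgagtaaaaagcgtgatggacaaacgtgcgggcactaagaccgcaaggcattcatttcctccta

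The Hmgcs1 window held 1 match to the sterol regulatory element TCACNCCAC with 4 CCAAT boxes around it. It was the single window with such a match among those listed for the members. Other forms of the element were not searched for. Insig1 had 1 CCAAT box and 1 E-box, Lss had 1 CCAAT box, Msmo1 had 3 CCAAT boxes, and Elovl6 had none of the 3 motifs. A window was listed for 25 of the 32 members, 33 windows in all because some genes have several starts. Stard4 and Sqle are not shown. A CCAAT box was in 20 of these 33 windows (60.6%), against 37.4% of all 32851 windows. The E-box was in 7 (21.2%, against 7.15% of all windows), and the sterol regulatory element in 1 (3.03%, against 1.24%). These matches describe letters in a window and are not evidence of binding.

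Each C10 library held between 15883573 and 18128186 counts, each CRS library between 16531779 and 17523368, and each CON library between 16510920 and 18433866. The members together took 45064 to 57394 counts per library in C10, 39973 to 52564 in CRS and 50655 to 60210 in CON. Libraries of one group stood apart: on the first principal component of all genes, which held 32.7% of the variance, the C10 libraries spanned -32 to 31.8, the CRS libraries -80.9 (CRS 2) to 64.6 (CRS 1), with CRS 5 at -59.1, and the CON libraries -26.7 to 49.5. Among the members, CON 2 had the highest CON level of 16 of the 18 sterol enzymes and CON 6 the lowest of 12. In CRS, CRS 1 was highest for 8 and CRS 5 lowest for 9, and in C10, C10 6 was highest for 11 and C10 3 lowest for 7. Markers of epithelium, ciliated cells and olfactory neurons were present in every library, as nasal mucosa should have: summed CPM of 8 epithelial markers was 1765 to 2059 in C10, 2025 to 2455 in CRS and 1846 to 2164 in CON. CPM are counts scaled to a common library size after TMM scaling, a correction for differences in RNA composition. In bulk tissue, fewer cells of a type and less RNA per cell cannot be told apart.

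Levels per transcript length are given as FPKM, from the authors' table. Scd2, a stearoyl-CoA desaturase that puts the double bond into saturated fatty acids, had the highest level of the 32, with means of 93.5 FPKM in C10, 83.3 FPKM in CRS and 94.7 FPKM in CON. Insig1, the sterol-regulated anchor of Scap, followed with 85.1 FPKM in C10, 68.1 FPKM in CRS and 69.6 FPKM in CON, and Srebf1 with 48.9 FPKM in C10, 46.6 FPKM in CRS and 50.4 FPKM in CON. Scd1 (38.6 FPKM in CON), Abcg1 (37.2) and Srebf2 (32.3) came next. Among the enzymes of the sterol pathway Hmgcs1 was highest (25.7 FPKM in C10, 19.7 FPKM in CRS and 21.6 FPKM in CON) and Sqle second (19.1 FPKM in C10, 15.4 FPKM in CRS and 18 FPKM in CON). Acaca, at 2.13 FPKM in C10, 2.31 FPKM in CRS and 2.68 FPKM in CON, and Fdps, at 0.628 FPKM in C10, 0.652 FPKM in CRS and 0.494 FPKM in CON, were the lowest. Fdps had a mean of 42.8 counts per library and shares 7512 bases with another gene model on its own strand, so its value is uncertain.

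**Figure D1:**
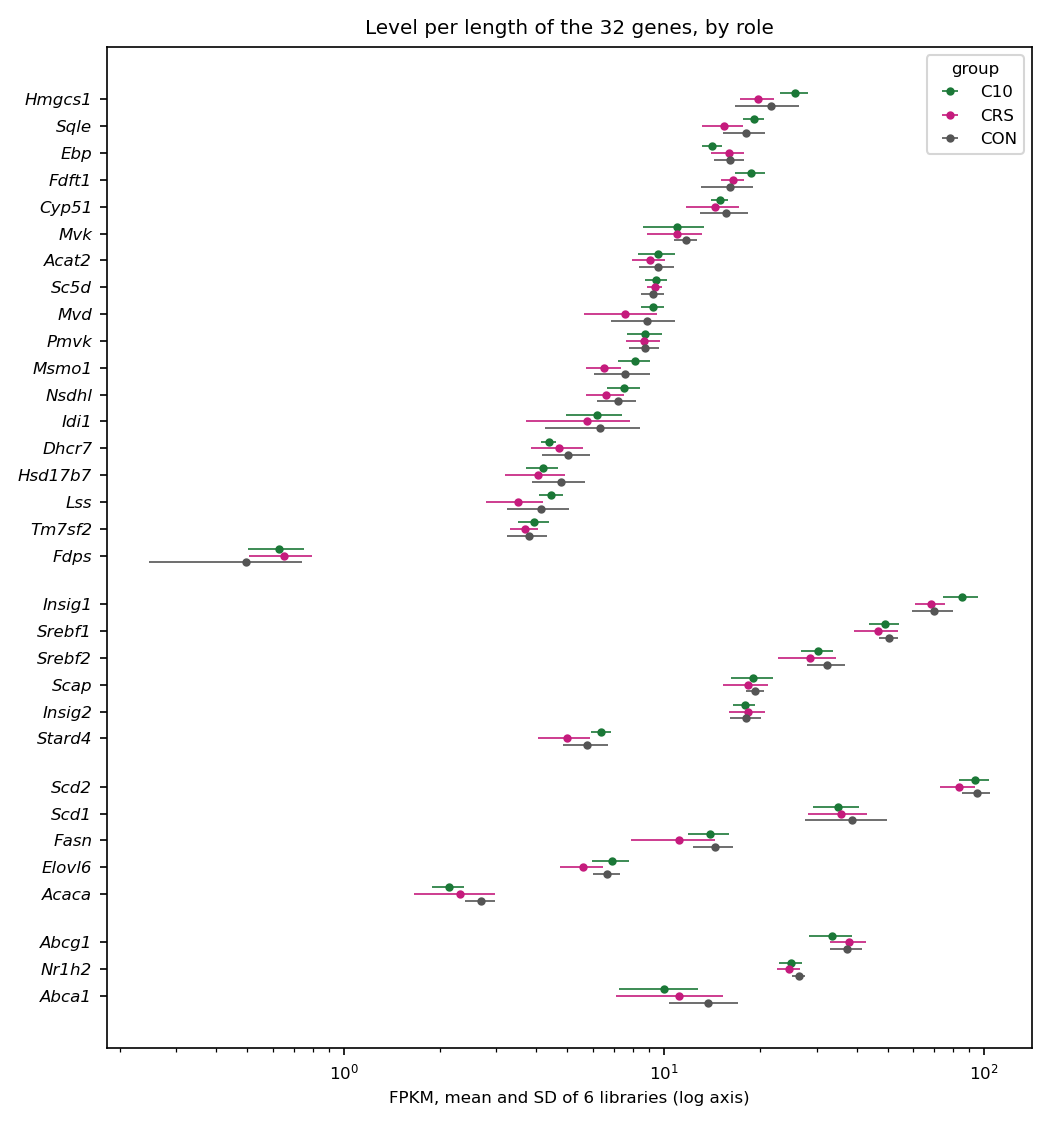
Mean level of each of the 32 genes in FPKM (log axis) with the SD over 6 libraries, grouped by role, with C10 above CRS and CRS above CON for each gene. Scd2 and Insig1 lie at the top of the range and Fdps, below 1 FPKM, at the bottom; the marks of the 3 groups lie close together beside the range between genes.

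None of the 32 genes was called in any comparison by edgeR's quasi-likelihood test with Benjamini-Hochberg adjustment over all 18291 genes (called: adjusted p under 0.05). The calls were also few among all genes: 0.00547% in CRS against CON, 0.0820% in C10 against CRS and 0.159% in C10 against CON. At an unadjusted p under 0.05, members were counted as follows. In CRS against CON 0 of 32 were higher, where 7.75% of all genes were, and 3 were lower (Sqle, Fasn and Elovl6), where 6.30% of all genes were. In C10 against CRS 7 of 32 were higher (Stard4, Hmgcs1, Insig1, Sqle, Elovl6, Msmo1 and Lss), where 5.77% of all genes were, and 0 were lower, where 7.41% were. In C10 against CON 2 were higher (Insig1 and Fdft1), where 6.29% of all genes were, and 2 lower (Acaca and Ebp), where 6.83% were.

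The signs of the log2 fold changes were also counted. In CRS against CON 27 of 32 members lay below 0, with 49.2% of all genes, and 5 above (50.8% of all genes), and the members' median was -0.12 against 0.0045 over all genes. In C10 against CRS 24 of 32 lay above 0, with 51.7% of all genes, 8 lay below (48.3% of all genes), and the median was 0.084 against 0.0084. In C10 against CON 15 lay above 0 (52.6% of all genes) and 17 below (47.4%), with a median of -0.013 against 0.012. CRS against CON and C10 against CRS share the 6 CRS libraries, so a low set of CRS libraries moves both, in opposite directions, and C10 against CON shares its C10 and CON libraries with them. Many members moved together in some libraries: 27 of 32 lay above the CON median in CON 2, and 28 lay below the CRS median in CRS 5. In C10 this was less marked, with 9 (C10 3) to 22 (C10 4) members above the C10 median. The 32 signs are therefore not 32 separate observations.

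Single libraries bore much of this. The members' median for CRS against CON was -0.068 without CRS 4, -0.069 without CON 2 and -0.17 without CRS 1. For C10 against CRS it was 0.023 without CRS 4, 0.033 without CRS 5, 0.046 without C10 6 and 0.13 without CRS 1. Without CRS 4, 18 of 32 members lay above 0, where 48.8% of all genes did, so that count is near the background. The 3 members lower in CRS than in CON at an unadjusted p under 0.05 became 10 without CRS 1, where 13.0% of all genes were lower, 8 without CON 6 (6.48%), 5 without CRS 2 (6.06%) and 0 without CRS 5 (3.72%). They became 1 without CON 2 (5.24% of all genes), CON 3 (4.43%), CON 4 (4.88%) or CRS 4 (4.46%). They became 2 without CRS 3 (5.5%), without CRS 6 (4.68%), or without CRS 2 and CRS 5 together (4.3%), and 1 or 2 of 32 is near these shares. The 7 members higher in C10 than in CRS numbered 6 to 10 with any 1 library left out. They numbered 10 without CRS 1, where 7.81% of all genes were higher. They numbered 6 without CRS 4 (4.64%), without CRS 5 (4.81%), and without CRS 2 and CRS 5 together (8.1%). With the olfactory covariate (10.5%) or limma-voom and quality weights (10.8%) they were 9. With the replicate block (5.77%) or limma on log2(FPKM + 1) (5.64%) they were 8. The 0 members lower in C10 than in CRS became 1 without CON 5 (8.09%), CRS 2 (9.72%), CRS 4 (6.5%) or CRS 5 (7.19%). That count was also 1 without CRS 2 and CRS 5 together (9.73%), with the replicate block (7.05%) and with limma-voom (9.55%). In these fits 1 of 32 is near or below the share. The members' median in C10 against CON ran from -0.034 without CON 6 to 0.043 without CON 2. The 2 higher members of C10 against CON became 5 without CON 2 (5.28% of all genes) and 3 without C10 3 (7.26%). They became 1 (Insig1) without CON 1, CON 3, CON 5 or CON 6. The same held without CRS 3, CRS 4, CRS 5, CRS 6, C10 4, C10 5 or C10 6. In these fits 4.03% (without CON 5) to 7.82% (without CON 1) of all genes were higher, and 1 of 32 is near this background. The 2 lower members of that comparison became 0 without C10 4 (5.45%) or CON 5 (5.19%), and 0 to 2 of 32 is near the background. Other models moved some counts as well: the 3 lower members of CRS against CON became 1 with only the groups compared (5.44% of all genes) and 5 with limma-voom and quality weights (13.3%). The 2 lower members of C10 against CON became 0 with the olfactory covariate (6.37%), and 3 with the groups compared alone (9.86%). The 2 higher members of that comparison became 1 with the olfactory covariate (6.13%), the groups compared alone (7.69%), no filter (4.91%) and limma-voom (9.13%). They became 1 without CRS 2 and CRS 5 together (6.75%). With the replicate block (5.6%) or limma on log2(FPKM + 1) (6.49%) they became 3.

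**Figure D2:**
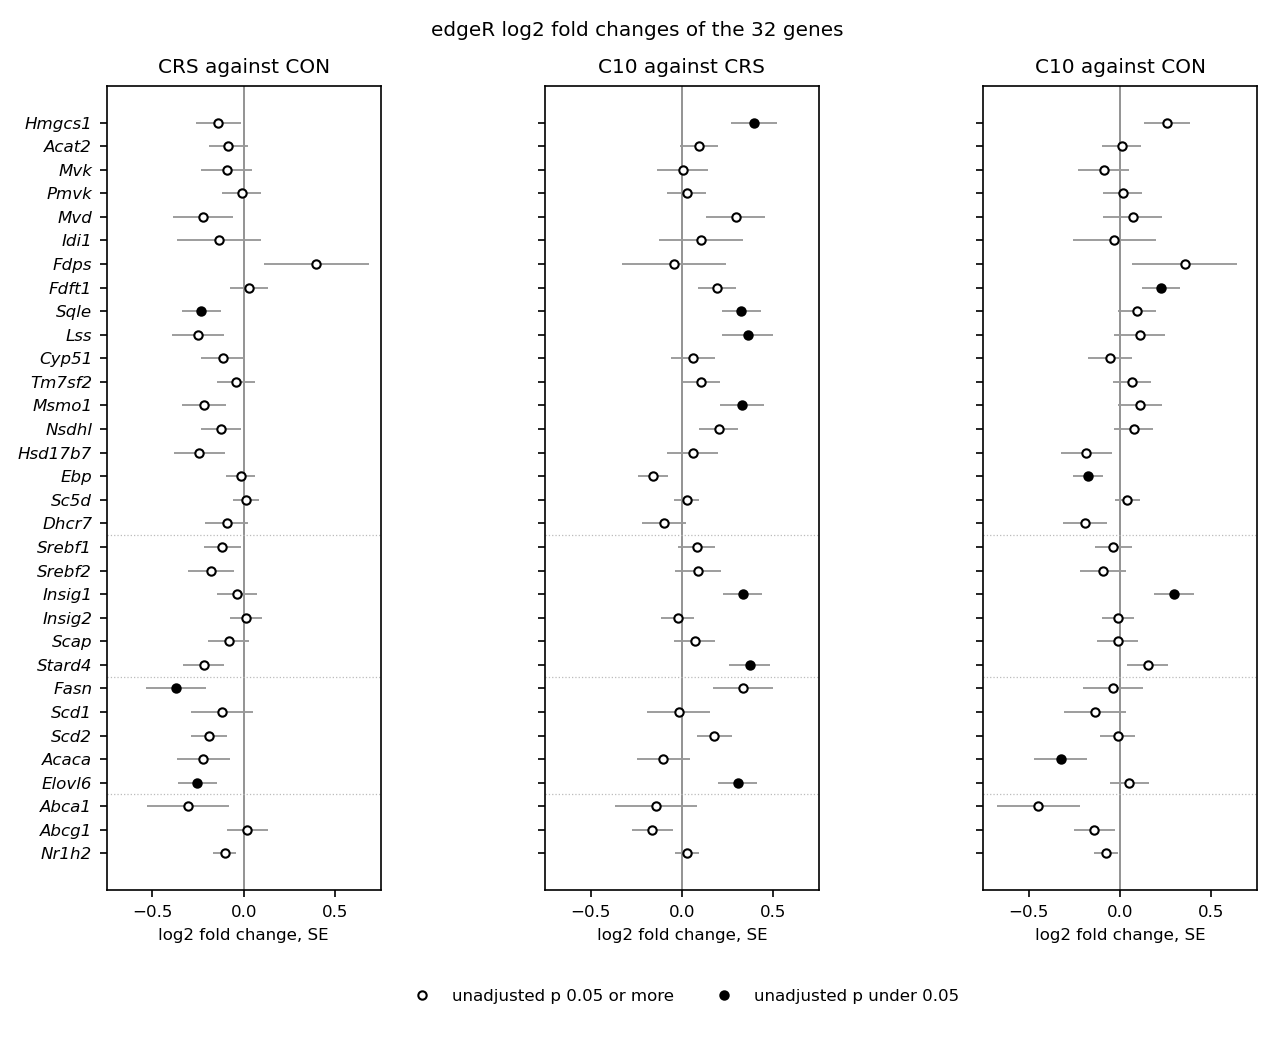
Log2 fold change with its SE for each gene in CRS against CON, C10 against CRS and C10 against CON; filled points have an unadjusted p under 0.05. In the middle panel 24 of 32 points lie above 0 and 7 are filled, in the CRS against CON panel 27 lie below 0 and 3 are filled, and no point passes the adjusted threshold.

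The mevalonate arm of the pathway starts with Acat2 and Hmgcs1, which join acetyl units into HMG-CoA. Hmgcs1 (ENSMUSG00000093930, chromosome 13, 119690379 to 119708260 in mm10) had a lowest, median and highest level of 107, 116 and 139.9 CPM in C10, 74.3, 93.0 and 104 CPM in CRS and 74.3, 98.7 and 136 CPM in CON. Every C10 library lay above every CRS library, while CON overlapped both groups, with CON 2 near the top C10 value. The C10 mean was 1.31 times the CRS mean (log2 fold change 0.40 ± 0.13 SE, unadjusted p = 0.00551, edgeR adjusted p = 0.19). The other early enzymes did not separate the groups: Acat2 ran from 21.2 to 30.9 CPM in C10, from 20.2 to 27.2 CPM in CRS and from 21.0 to 29.1 CPM in CON. The kinases Mvk and Pmvk, the decarboxylase Mvd and the isomerase Idi1, which make and rearrange the isoprenoid units, overlapped widely as well. Mvk covered 21.2 to 36.7 CPM in C10, 21.6 to 39.7 CPM in CRS and 27.0 to 34.7 CPM in CON, and Pmvk 13.4 to 18.2 CPM in C10, 12.9 to 17.3 CPM in CRS and 13.4 to 17.1 CPM in CON. Of these Mvd lay with all 6 C10 libraries above the CRS median, at medians of 17.6 CPM in C10, 13.7 CPM in CRS and 17.2 CPM in CON. Idi1 ranged from 16.2 to 36.2 CPM within CON alone, wider than any difference between group medians. Fdps, which joins the units into farnesyl, stood at 1.95 to 3.40 CPM in C10, 2.11 to 3.55 CPM in CRS and 0.819 to 3.74 CPM in CON.

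Squalene is made by Fdft1, which joins a pair of farnesyl units, and committed to sterols by the epoxidase Sqle. Sqle showed 97.5, 107 and 119.8 CPM in C10, 69.0, 85.1 and 102 CPM in CRS and 81.2, 96.6 and 126 CPM in CON. All 6 C10 libraries lay above the medians of CRS and of CON, and 5 of 6 CRS libraries lay below the CON median. In C10 its level was 1.25 times that in CRS (log2 fold change 0.33 ± 0.11 SE, unadjusted p = 0.00642, edgeR adjusted p = 0.195). Relative to CON, CRS gave 0.851 times the level (log2 fold change -0.23 ± 0.11 SE, unadjusted p = 0.041, edgeR adjusted p = 0.335). Fdft1 had 71.3, 77.9 and 96.3 CPM in C10, 63.0, 69.4 and 79.1 CPM in CRS and 59.1, 64.2 and 93.0 CPM in CON, with CON 2 at the CON maximum and the next CON library at 70.1 CPM. Its C10 level was 1.17 times that of CON (log2 fold change 0.22 ± 0.10 SE, unadjusted p = 0.0449, edgeR adjusted p = 0.365). Fdft1 shares 774 bases with Ctsb, which lies on the opposite strand and had a mean of 19181 counts per library against 1242 for Fdft1. The library kit is not stated to keep strand, so reads from the shared bases could not be assigned with certainty.

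Lanosterol synthase, Lss, closes the sterol rings. Its levels were 41.7, 49.9 and 53.4 CPM in C10, 26.9, 39.7 and 47.1 CPM in CRS and 36.0, 42.6 and 64.4 CPM in CON. The C10 libraries lay above the CRS median in 6 of 6, but the CRS range reached into the C10 range, and CON spread over both. C10 stood at 1.28 times CRS (log2 fold change 0.36 ± 0.14 SE, unadjusted p = 0.0197, edgeR adjusted p = 0.272). Msmo1, the C4-methylsterol oxidase, had 43.9, 48.2 and 60.1 CPM in C10, 30.9, 42.0 and 43.7 CPM in CRS and 34.7, 45.3 and 58.7 CPM in CON. Its lowest C10 library was 43.9 CPM and its highest CRS library 43.7 CPM, so these groups did not overlap, though by little. Its C10 level was 1.26 times the CRS level (log2 fold change 0.33 ± 0.12 SE, unadjusted p = 0.0137, edgeR adjusted p = 0.245). Among all 18291 genes 0.355% were higher in C10 than in CRS with no overlap, and 2 of the 32 members, Hmgcs1 and Msmo1, were so placed. No member was lower without overlap in C10 than in CRS (0.525% of all genes), higher or lower in CRS than in CON (0.383% and 0.279%), or higher or lower in C10 than in CON (0.733% and 1.08%).

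Ebp, the isomerase that moves a double bond in the sterol ring, had 29.1, 34.0 and 34.9 CPM in C10, 31.0, 37.1 and 43.2 CPM in CRS and 32.2, 36.8 and 43.5 CPM in CON, with all 6 C10 libraries below the medians of CRS and of CON. Its C10 level was 0.886 times that of CON (log2 fold change -0.18 ± 0.082 SE, unadjusted p = 0.0459, edgeR adjusted p = 0.368), the opposite sign to Fdft1 in that comparison. Dhcr7, the last reductase, also had all 6 C10 libraries below the medians of CRS and of CON, at medians of 25.6 CPM in C10, 28.2 CPM in CRS and 29.9 CPM in CON. Cyp51, Tm7sf2, Nsdhl, Hsd17b7 and Sc5d had unadjusted p of 0.0805 or more in every comparison. Cyp51, the lanosterol demethylase, spanned 62.0 to 73.3 CPM in C10, 51.1 to 80.9 CPM in CRS and 55.1 to 88.4 CPM in CON, and the desaturase Sc5d 41.2 to 52.2 CPM in C10, 42.4 to 48.3 CPM in CRS and 39.9 to 50.98 CPM in CON. The dehydrogenase Nsdhl spanned 18.4 to 26.5 CPM in C10, 16.2 to 22.6 CPM in CRS and 17.9 to 25.3 CPM in CON. The ketone reductase Hsd17b7 spanned 18.3 to 24.7 CPM in C10, 15.3 to 26.3 CPM in CRS and 21.0 to 32.8 CPM in CON, and the sterol reductase Tm7sf2 19.3 to 25.9 CPM in C10, 18.2 to 23.5 CPM in CRS and 18.4 to 25.7 CPM in CON. Tm7sf2 shares 9356 bases with Vps51 on its own strand, and Cyp51 shares 166 with Akap9 on the opposite strand. Summed over the 18 sterol enzymes, the lowest, median and highest library had 689, 748 and 859 CPM in C10, 581, 666 and 742 CPM in CRS and 594, 687 and 913 CPM in CON. The CON range held every C10 library, with CON 2 at its top and CON 6 at its bottom.

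**Figure D3:**
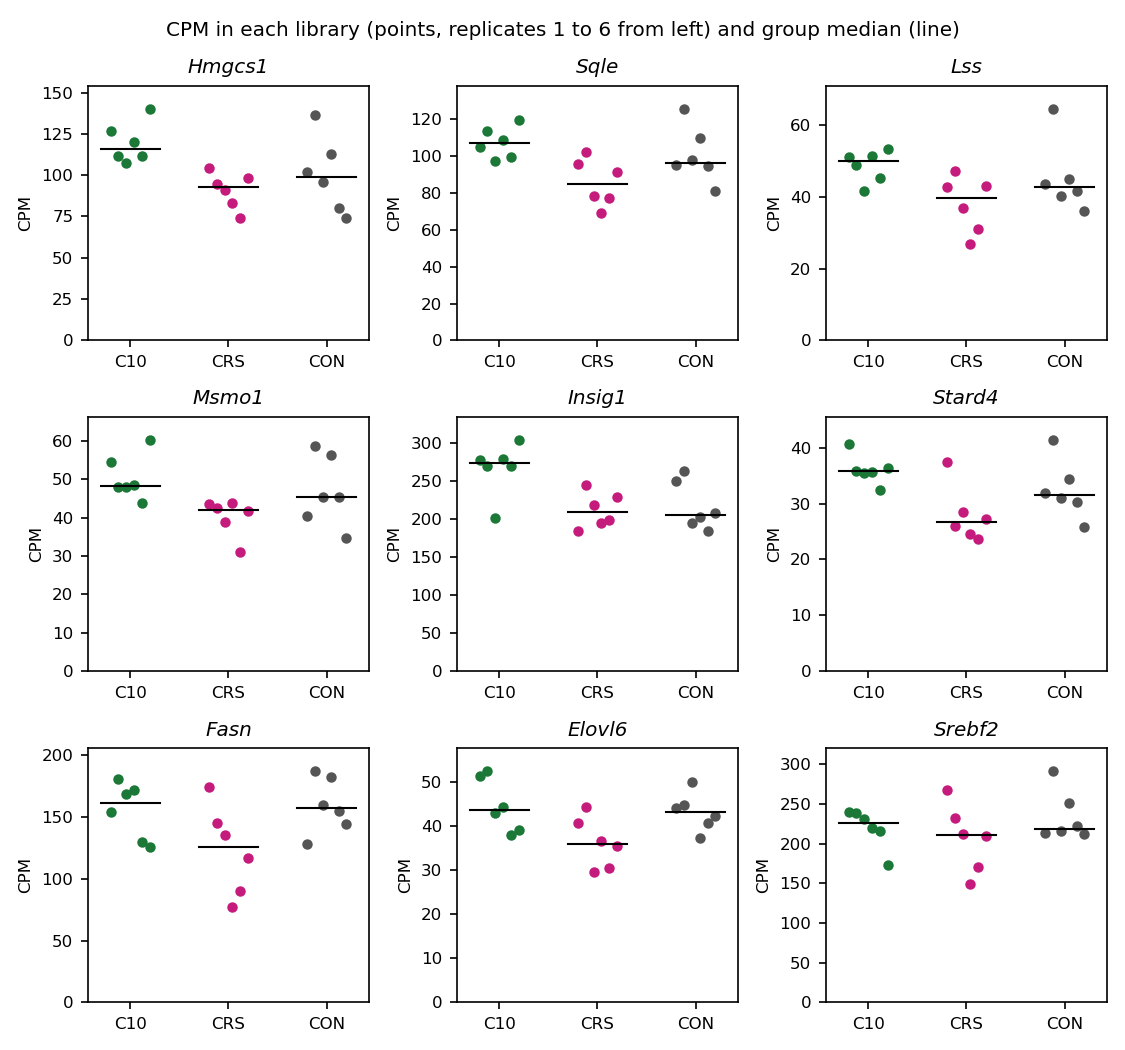
CPM of 9 genes in each library, with C10 left of CRS and CRS left of CON. Hmgcs1 and Msmo1 show the C10 libraries above all CRS libraries, while the other panels show overlapping groups, and CON 2 lies at or near the top of CON for the sterol genes.

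Among the control genes, Srebf2 encodes the SREBP factor that drives the sterol enzymes. Its levels were 173, 226 and 239.9 CPM in C10, 149, 211 and 267 CPM in CRS and 212, 219 and 291 CPM in CON, with 1 low C10 library, C10 6, at 173 CPM while the next stood at 216 CPM. Its log2 fold changes were -0.18 ± 0.13 in CRS against CON, 0.088 ± 0.13 in C10 against CRS and -0.091 ± 0.13 in C10 against CON (SE; edgeR adjusted p = 0.534, 0.831 and 0.793). C10 6, the lowest for Srebf2, was the highest C10 library for 11 of the 18 sterol enzymes. Srebf1, whose SREBP products lean to fatty acid genes, had 246, 281 and 309 CPM in C10, 197, 269 and 329.7 CPM in CRS and 258, 285 and 322 CPM in CON. Its log2 fold changes were -0.12 ± 0.10 in CRS against CON, 0.08 ± 0.10 in C10 against CRS and -0.037 ± 0.10 in C10 against CON (SE; edgeR adjusted p = 0.626, 0.802 and 0.905). mRNA levels do not report the cut, active factor.

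Insig1, itself a target of SREBP and the brake on Scap, had 201, 274 and 304 CPM in C10, 184, 209 and 245 CPM in CRS and 185, 206 and 264 CPM in CON. In 5 of 6 C10 libraries it lay at 270.1 CPM or more, higher than any CRS or CON library, and C10 3 lay at 201 CPM, below the medians of both. Its C10 level was 1.26 times that in CRS (log2 fold change 0.33 ± 0.11 SE, unadjusted p = 0.00635, edgeR adjusted p = 0.195) and 1.23 times that in CON (log2 fold change 0.30 ± 0.11 SE, unadjusted p = 0.0132, edgeR adjusted p = 0.261). Between CRS and CON the log2 fold change was -0.037 ± 0.11 SE (edgeR adjusted p = 0.904). Without C10 3 the value in C10 against CRS was 0.40. Insig2, the second anchor, had medians of 63.8, 63.8 and 62.5 CPM in C10, CRS and CON, and Scap, the escort, had 140.1, 139 and 144 CPM, with every range overlapping.

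Stard4, a carrier that moves cholesterol between membranes, had the smallest p of the 32 in C10 against CRS. It stood at 32.4, 35.8 and 40.7 CPM in C10, 23.7, 26.6 and 37.5 CPM in CRS and 25.9, 31.5 and 41.3 CPM in CON. Of the CRS libraries CRS 1 was far above the others, which had at most 28.5 CPM, and it lay inside the C10 range. The C10 level was 1.29 times that of CRS (log2 fold change 0.37 ± 0.11 SE, unadjusted p = 0.00403, edgeR adjusted p = 0.175), and all 6 C10 libraries lay above the CRS median and above the CON median. Stard4 was the member that came closest to a call. With the level of olfactory neuron markers as a covariate it passed (log2 fold change 0.39 ± 0.10 SE, edgeR adjusted p = 0.0465), where 529 genes in all were called. With limma-voom and quality weights it passed too, as did Elovl6 (limma adjusted p = 0.0394 and 0.0387), where 548 genes were called. In the other 27 alternative fits Stard4 did not pass.

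Fatty acid synthesis begins with Acaca, which makes malonyl-CoA, and Fasn, which assembles palmitate. Fasn had 126, 161 and 181 CPM in C10, 76.8, 126 and 174 CPM in CRS and 128, 157 and 187 CPM in CON. In CRS, CRS 4 was lowest and CRS 1 highest, a wider spread than in C10 or CON. Its level in CRS was 0.772 times that of CON (log2 fold change -0.37 ± 0.17 SE, unadjusted p = 0.0363, edgeR adjusted p = 0.327), and without CRS 4 the log2 fold change was -0.27. In C10 against CRS the log2 fold change was 0.33 ± 0.17 SE (unadjusted p = 0.0576, edgeR adjusted p = 0.397), with 6 of 6 C10 libraries above the CRS median. In C10 against CON it was -0.038 ± 0.17 SE (edgeR adjusted p = 0.942).

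Elovl6, which lengthens palmitate to stearate, had 38.1, 43.7 and 52.5 CPM in C10, 29.6, 36.0 and 44.3 CPM in CRS and 37.4, 43.2 and 49.9 CPM in CON. Its CRS level was 0.838 times that of CON (log2 fold change -0.26 ± 0.11 SE, unadjusted p = 0.0283, edgeR adjusted p = 0.304) and its C10 level 1.24 times that of CRS (log2 fold change 0.31 ± 0.11 SE, unadjusted p = 0.0105, edgeR adjusted p = 0.223). Acaca had 30.9, 36.8 and 42.3 CPM in C10, 27.0, 36.6 and 55.7 CPM in CRS and 41.4, 45.3 and 55.9 CPM in CON, and all 6 C10 libraries lay below the CON median. C10 stood at 0.799 times CON (log2 fold change -0.32 ± 0.14 SE, unadjusted p = 0.0384, edgeR adjusted p = 0.344). The CRS libraries of Acaca spread from 27.0 to 55.7 CPM, with CRS 1 highest and CRS 5 lowest.

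The desaturase Scd1 had 144, 168 and 224 CPM in C10, 128, 176 and 214 CPM in CRS and 147, 170.1 and 296 CPM in CON, and CON 3 stood apart at 296 CPM with the next CON library at 193 CPM. Its log2 fold changes were -0.12 ± 0.17 in CRS against CON, -0.018 ± 0.17 in C10 against CRS and -0.14 ± 0.17 in C10 against CON (SE; edgeR adjusted p = 0.783, 0.977 and 0.768). Scd2 had medians of 528 CPM in C10, 454 CPM in CRS and 511 CPM in CON, and 5 of 6 CRS libraries lay below the CON median. The near copies Scd3 and Scd4, with means of 31.1 and 4.67 counts per library, could share reads with both.

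Markers of sebaceous glands and fat cells, both rich in these enzymes, were read in the same libraries. Of 10 sebaceous markers Mgst1, which many tissues express, averaged 235 CPM in C10, 224 CPM in CRS and 194 CPM in CON, and the next, Pparg, 12.3, 10.3 and 11.2 CPM. The more specific Mc5r, Awat1, Awat2, Krt79 and Elovl3 had group means of at most 1.21 CPM, with Awat1 at 0 in C10 and Elovl3 at 0 in CON. Summed CPM of the 10 was 231, 254 and 316 in C10, 195, 243 and 342 in CRS and 198, 210.3 and 248 in CON (lowest, median and highest), which is mostly Mgst1. Of the 8 adipocyte markers 2 passed the filter, Cidea at 8.01, 8.4 and 7.9 CPM and Fabp4 at 1.3, 4.85 and 3.92 CPM on average in C10, CRS and CON. Adipoq, Plin1, Cidec, Lep, Retn and Cfd averaged at most 0.731 CPM, with Cidec at 0 in C10 and Lep at 0 in C10 and in CON. The 8 had summed CPM of 7.47, 9.69 and 11.9 in C10, 10.1, 11.3 and 25.2 in CRS and 9.37, 11.2 and 21.4 in CON. Their part in the fatty acid values was not tested.

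Of the LXR group, Abca1, the pump that loads cholesterol onto apolipoprotein A-I, had 65.3, 113 and 139 CPM in C10, 75.1, 109 and 192 CPM in CRS and 103, 133 and 194 CPM in CON. In C10 against CON 5 of 6 C10 libraries lay below the CON median. Abcg1, which exports sterol to mature particles, ran from 109 to 165 CPM in C10, from 115 to 171 CPM in CRS and from 123 to 178 CPM in CON, and Nr1h2, which encodes LXR beta, had medians of 85.7, 83.2 and 89.6 CPM in C10, CRS and CON. For both, the 3 groups overlapped.

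**Figure D4:**
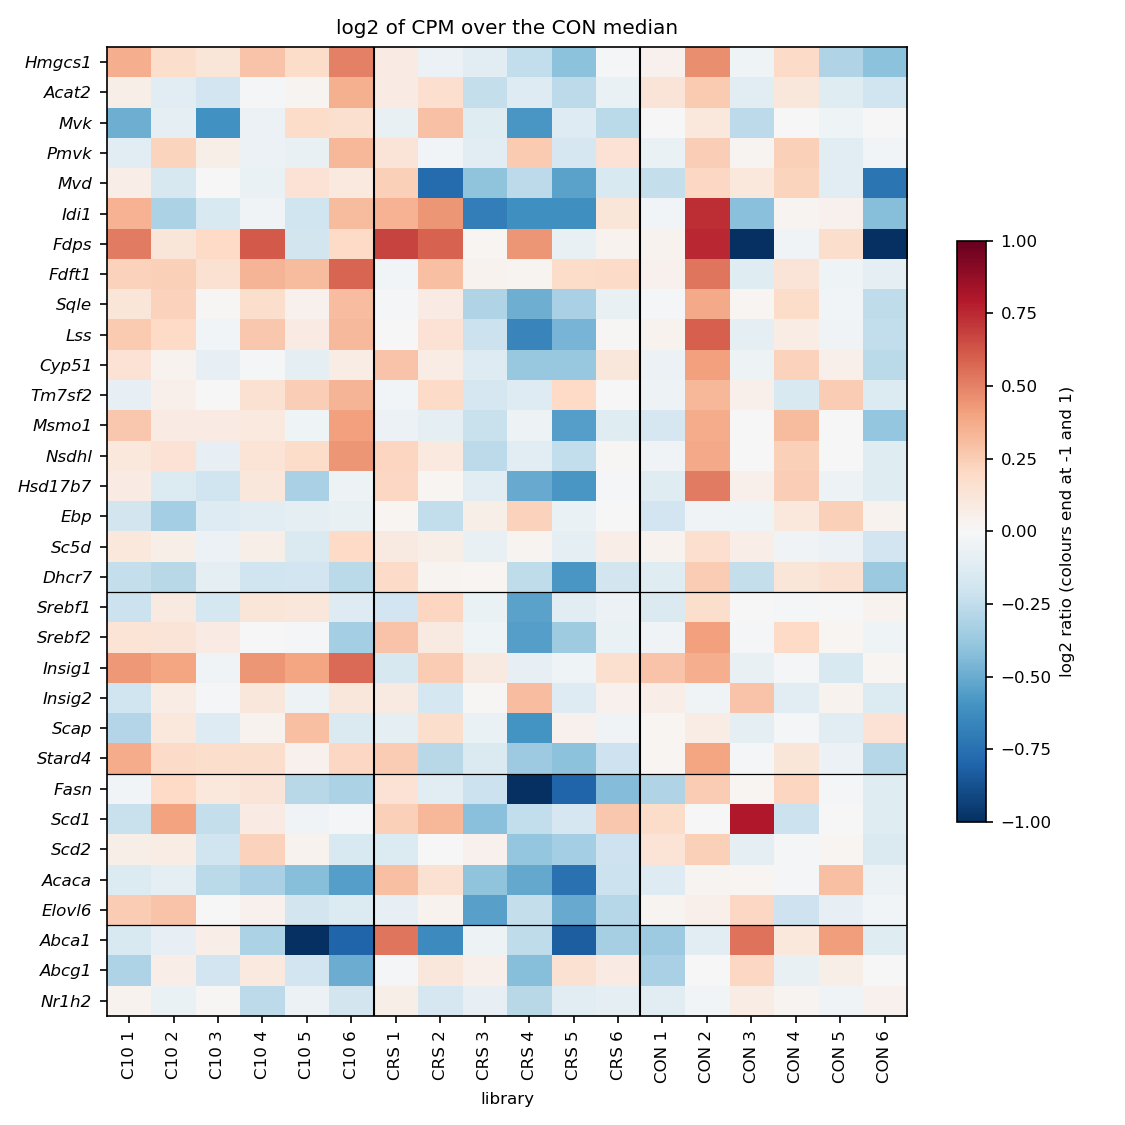
Log2 of CPM over the CON median for the 32 genes in the 18 libraries, with C10 left of CRS and CRS left of CON; colours end at -1 and 1. CON 2 is a warm column for the sterol enzymes and CON 6 a cool one, CRS 4 and CRS 5 hold many cool cells, and C10 6 is warm for sterol enzymes yet cool for Srebf2, Fasn and Acaca.

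Genes of the same pathways outside the list gave 0 calls in each comparison. Of 24 other genes of sterol synthesis, uptake and handling 22 were tested: in CRS against CON 3 lay above 0 and 19 below, in C10 against CRS 13 above and 9 below, and in C10 against CON 7 above and 15 below. Above 0 lay 50.8%, 51.7% and 52.6% of all genes in these 3 comparisons. Counted at an unadjusted p under 0.05, 0 were higher and 3 lower in CRS against CON (7.75% and 6.30% of all genes). In C10 against CRS 2 were higher and 2 lower (5.77% and 7.41%). In C10 against CON 1 was higher and 5 lower (6.29% and 6.83%).

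Those of smallest p in CRS against CON included Mbtps1, the protease that makes the first cut in SREBP, and Stard3, a sterol carrier of late endosomes. Mbtps1 had a log2 fold change of -0.22 ± 0.073 SE (edgeR adjusted p = 0.227) and Stard3 -0.19 ± 0.089 SE (edgeR adjusted p = 0.339). In C10 against CRS the 3 of smallest p were Npc2, which hands lysosomal cholesterol to the membrane, Gpr155, a lysosomal sterol sensor, and Ggps1, which makes geranylgeranyl units. Npc2 had 106, 116 and 150 CPM in C10, 122, 171 and 242 CPM in CRS and 147, 162 and 258 CPM in CON (-0.55 ± 0.17 SE in C10 against CRS, edgeR adjusted p = 0.19). Gpr155 had 255, 395 and 456 CPM in C10, 172, 212 and 309 CPM in CRS and 140.4, 227 and 371 CPM in CON (0.68 ± 0.22 SE, edgeR adjusted p = 0.19). Ggps1 had 0.16 ± 0.06 SE (edgeR adjusted p = 0.245). In C10 against CON Npc2 had -0.57 ± 0.17 SE, Scarb1, a receptor for high density lipoprotein, -0.23 ± 0.071 SE and Gpr155 0.64 ± 0.22 SE (edgeR adjusted p = 0.184, 0.195 and 0.226).

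Of 28 other fatty acid and lipid synthesis genes 26 were tested, with 9 above 0 and 17 below in CRS against CON, 13 and 13 in C10 against CRS, and 11 and 15 in C10 against CON. At an unadjusted p under 0.05 the counts were 0 higher and 1 lower, 1 higher and 1 lower, and 1 higher and 2 lower in the same order. The shares of all genes were 7.75% and 6.30%, 5.77% and 7.41%, and 6.29% and 6.83%, and these counts are near or below them. Gpam, which starts triglyceride synthesis, had 33.9, 36.4 and 41.0 CPM in C10, 21.2, 31.0 and 38.5 CPM in CRS and 33.7, 35.3 and 42.0 CPM in CON, a log2 fold change of -0.32 ± 0.12 SE in CRS against CON and 0.32 ± 0.12 SE in C10 against CRS (edgeR adjusted p = 0.266 and 0.257). The others of smallest p were Acly (-0.18 ± 0.089) and Fads1 (-0.16 ± 0.1) in CRS against CON, and Elovl7 (-0.39 ± 0.15) and Dgat1 (-0.24 ± 0.11) in C10 against CRS. In C10 against CON they were Elovl7 (-0.39 ± 0.15), Pnpla3 (0.51 ± 0.20) and Dgat1 (-0.27 ± 0.11), all as log2 fold changes with their SE.

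Of 13 other LXR genes and targets 11 were tested, with 2 above 0 and 9 below in CRS against CON, 4 and 7 in C10 against CRS, and 3 and 8 in C10 against CON. At an unadjusted p under 0.05 there were 1 higher and 1 lower, 1 higher and 3 lower, and 1 higher and 4 lower. The shares of all genes were 7.75% and 6.30%, 5.77% and 7.41%, and 6.29% and 6.83%. Apoe, the lipid-carrying apolipoprotein, had 982, 1259 and 1364 CPM in C10, 1182, 1796 and 2746 CPM in CRS and 1705, 1979.6 and 3199.9 CPM in CON, with every C10 library below every CON library. Its log2 fold change was -0.87 ± 0.21 SE in C10 against CON and -0.58 ± 0.21 SE in C10 against CRS (edgeR adjusted p = 0.111 and 0.228). Lpl, the lipase that frees fatty acids from lipoproteins, had 20.3, 29.3 and 43.1 CPM in C10, 28.6, 47.0 and 68.9 CPM in CRS and 40.2, 55.4 and 80.0 CPM in CON, and log2 fold changes of -0.96 ± 0.23 SE in C10 against CON and -0.71 ± 0.23 SE in C10 against CRS (edgeR adjusted p = 0.115 and 0.198). The others of smallest p were Apoc1 (0.57 ± 0.20), Rxra (-0.19 ± 0.092) and Pltp (-0.41 ± 0.21) in CRS against CON, Smpdl3a (-0.19 ± 0.083) in C10 against CRS and Apoc1 (0.49 ± 0.20) in C10 against CON.

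Macrophages express Apoe, Lpl, Npc2 and Abca1, and their markers were read beside these genes. Of 10 macrophage markers 1 was called lower in C10 against CON, where 0.159% of all genes were called in either direction. At an unadjusted p under 0.05, 7 of the 10 were lower in C10 against CON (6.83% of all genes) and 2 in C10 against CRS (7.41%). Of the 10 markers 9 lay below 0 in C10 against CON (47.4% of all genes) and 8 in C10 against CRS (48.3%). Their summed CPM was 305, 348 and 653 in C10, 218, 507 and 1181 in CRS and 479, 710.4 and 1191 in CON (lowest, median and highest), with CRS 1 highest in CRS, as it was for Abca1. Fibroblast marker CPM summed to 2208, 3094 and 4775 in C10, 2189, 3787 and 7498 in CRS and 3446, 5304 and 11075 in CON, all 8 below 0 in C10 against CON. Of these 8, 7 were lower at an unadjusted p under 0.05 in C10 against CON (6.83%) and 0 in C10 against CRS (7.41%). Abca1 and the fibroblast sums were both highest in C10 3, CRS 1 and CON 3. The macrophage sums were highest in C10 3, CRS 1 and CON 4. No marker of either list had a mean of 0 in a group. The part of these cells in the LXR values was not tested.

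Markers of other cell types were counted in the comparisons of the sterol genes. Of 9 tested ciliated cell markers 8 lay below 0 in CRS against CON (median log2 fold change -0.37) and 8 above 0 in C10 against CRS (median 0.36). At an unadjusted p under 0.05, 3 were lower and 4 higher in these comparisons (6.30% and 5.77% of all genes). Ciliated marker CPM summed to 530.1, 967 and 1138 in C10, 518, 702 and 764 in CRS and 722, 893 and 1015 in CON. The lowest C10 sums were 530.1 CPM in C10 5 and 547 CPM in C10 6, and C10 6 had the highest sterol enzyme sum in C10. The 8 epithelial markers had the opposite signs, all above 0 in CRS against CON and all below 0 in C10 against CRS. At the same threshold 3 of the 8 were higher in CRS against CON (7.75% of all genes) and 3 lower in C10 against CRS (7.41%). Of the 10 Schwann cell and myelin markers, cells known for heavy sterol synthesis, 7 lay below 0 in CRS against CON and 7 above 0 in C10 against CRS, with summed CPM of 323, 356 and 415 in C10, 314, 348 and 397 in CRS and 365, 385 and 407 in CON. At an unadjusted p under 0.05, 4 of the 10 were lower in CRS against CON (6.30%) and 1 higher in C10 against CRS (5.77%). All 10 mature olfactory neuron markers lay above 0 in CRS against CON, and 7 in C10 against CRS. Of 10 sustentacular and Bowman gland markers 8 lay above 0 in CRS against CON and 5 in C10 against CRS, and of 8 nasal gland markers all 8 and 2. At that threshold 1 olfactory neuron marker, 2 sustentacular and Bowman gland markers and 0 nasal gland markers were higher in CRS against CON (7.75%). In C10 against CRS these counts were 0, 1 and 1 (5.77%), and 2 sustentacular and Bowman gland markers were lower (7.41%). Summed CPM of the olfactory neuron markers was 4626, 6547 and 8040.0 in C10, 3581, 6156 and 9206 in CRS and 3088, 5393 and 7551 in CON, of the sustentacular and Bowman gland markers 12655, 18800.0 and 20389 in C10, 10197, 15531 and 19670.0 in CRS and 10796, 14115 and 16541 in CON, and of the nasal gland markers 33143, 53168 and 103700.0 in C10, 21033, 74444 and 131960.0 in CRS and 23590.0, 58048 and 71994 in CON. No marker of these lists had a mean of 0 in a group, and their part in the sterol values was not tested.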

How the data were processed

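The authors deposited unnormalized read counts (whole numbers) for 18 libraries, and a table of FPKM values that they made from these counts. The build is mm10, per the submitters' processing notes; no aligner, counting tool, annotation release or strand setting is given in any source used here. Of the columns, 0 had no matching library. Column totals and FPKM imply that the authors scaled library sizes by 0.877 to 1.08 times.

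From the deposited counts, genes with low counts were removed (filterByExpr by group in edgeR 4.0.16, R 4.3.3), libraries were scaled by TMM, and each contrast was tested by edgeR's quasi-likelihood F-test in a fit of 18 libraries and 3 group means. P-values are two-sided, adjusted by Benjamini-Hochberg over 18291 genes, and called under 0.05. The SE is the log2 fold change over the square root of F. The biological coefficient of variation was 0.264. A floor of 3 counts covers counting error only. Over all 153 pairs of libraries the chi-square of the counts was at least 14.1 per degree of freedom, so no pair is 1 library counted again. FPKM were used for levels and for alternatives with limma 3.58.1.

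The members, the other gene lists and the tests were chosen with earlier results of these data known. All 32 members are named; fold changes are given where the unadjusted p was under 0.05 and for Srebf1, Srebf2, Insig1, Fasn and Scd1 in every comparison. For the other pathway lists the called genes, or else the 3 of smallest p, are named, except for 1 that is not reported here. No test was run on a list as a whole. Alternatives were RLE size factors, no filter, a filter of 1 CPM in 6 libraries, a replicate block, only the groups compared, limma on log2(FPKM + 1) and log2(FPKM + 0.1), a covariate for olfactory marker level, limma-voom with sample quality weights, DESeq2 1.42.0, leaving out CRS 2 and CRS 5 together, and leaving out each library. In simulated counts (18291 genes, with 100 shifted by 1.5-fold and as many by 2-fold) the calls in CRS against CON took in 35 and 58 of these, those in C10 against CRS 43 and 67, and those in C10 against CON 39 and 66; false calls numbered 13, 6 and 3. Sequences are RefSeq's, build GRCm38.p6.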

Additional observations from a re-analysis of the deposited data

Results flagged for a closer look

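Each of the 32 genes was examined in each group of 6 libraries for 1 library set far from the rest, 96 groups in all. Chance flags about 5% of groups, and 9 were found. CON 2 stood above the other CON libraries for 3 sterol enzymes: Idi1 at 36.2 CPM with the nearest library at 22.4 CPM, Fdft1 at 93 CPM with the nearest at 70.1 CPM, and Lss at 64.4 CPM with the nearest at 44.9 CPM. These 3 share 1 library, so they are not separate observations. In C10, Srebf2 was low in C10 6 at 173 CPM, with the nearest at 216 CPM, and Insig1 was low in C10 3 at 201 CPM, with the nearest at 270.1 CPM. In CRS, Stard4 was high in CRS 1 at 37.5 CPM with the nearest at 28.5 CPM, and Abcg1 was low in CRS 4 at 115 CPM with the nearest at 153 CPM. In CON, Scd1 was high in CON 3 at 296 CPM with the nearest at 193 CPM, and Acaca was high in CON 5 at 55.9 CPM with the nearest at 46.2 CPM.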

How the results depend on the processing

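The count of members called stayed at 0 in every comparison and alternative, leaving out each library included, with 2 exceptions in C10 against CRS: 2 members with limma-voom and quality weights, and 1 with the olfactory covariate. No fold change of a member at an unadjusted p under 0.05 changed sign in 29 alternative fits. These fold changes were picked by their p, and the fits reuse most or all of the same libraries. A kept sign was therefore likely in advance and is no added support. The count over all genes moved more. For CRS against CON edgeR called 1 gene; DESeq2 called 178, limma-voom 940, limma on log2(FPKM + 0.1) called 2 and on log2(FPKM + 1) called 3, the olfactory covariate 2, the stricter filter 3, and the replicate block and the groups compared alone 0 each. For C10 against CRS, where edgeR called 15, DESeq2 called 351, limma-voom 548, limma on log2(FPKM + 1) called 26, the olfactory covariate 529, the stricter filter 23, the groups compared alone 9, and leaving out CRS 2 and CRS 5 together 100. For C10 against CON, where edgeR called 29, DESeq2 called 309, limma-voom 252, no filter 17, the olfactory covariate 193, the groups compared alone 161, the replicate block 12, and leaving out CRS 2 and CRS 5 together 74. Leaving out 1 library gave 0 to 994 genes for CRS against CON, the highest without CRS 1, 7 to 81 for C10 against CRS and 3 to 110 for C10 against CON. The cause was not tested. Same-numbered libraries were not taken as paired, by a rule that all 6 correlations of their deviations exceed 0.1. The correlations ran from -0.574 to 0.225 for CRS against CON (3 of 6 above 0.1). For C10 against CRS they ran from -0.231 to 0.519 (4 of 6), and the replicate block called 13 genes. For C10 against CON they ran from -0.417 to 0.185 (1 of 6). The rule cannot exclude partial pairing. In simulated data edgeR recovered 35 to 43 of 100 genes changed 1.5-fold; smaller changes were not simulated.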
